A study of Mus musculus with 9 samples.

Results

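The 10 genes described here encode ADAMTS proteases and ADAMTS-like proteins, which are secreted by fibroblasts into the extracellular matrix. Members were listed by gene symbol, with earlier results of these data known, and all 10 of 10 were found among the 38924 genes of the count table. Expression was measured by RNA sequencing in primary cardiac fibroblasts of adult mice, aged 8 to 10 weeks, on a C57BL/6 background and carrying the RosaCas9-EGFP allele, which expresses Cas9 and enhanced green fluorescent protein in all cells. The cells of all groups, controls included, carried this allele, were cultured for 3 days, sorted as CD45- CD31- CD90+ and replated, and were transfected after 6 days at 80 to 90% confluency. The control group received scrambled guide RNAs, the Gata4 KD group 2 guides against Gata4 and the Tbx20 KD group 2 guides against Tbx20, with 3 libraries (a, b and c) in each. Cas9 cutting of a transfected culture leaves a mixture of edited and unedited cells, and the transcript level does not measure the loss of protein.

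ADAMTS enzymes are zinc metalloproteases with thrombospondin repeats that bind them to the matrix. Subsets of them cleave versican and aggrecan, process procollagen or act on other matrix proteins. The ADAMTS-like proteins share the repeats but have no protease domain, and several bind fibrillin microfibrils. In the developing heart, versican cleavage by ADAMTS proteases remodels the cardiac jelly and the valves, and fibroblasts of the adult heart express several of these genes.

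The protospacers of the 4 targeting guides, which define the knockdowns, are given 5′ to 3′, with the 12 bases next to the PAM, where pairing matters most for cutting, in capitals.
Tbx20 guide A: caaattccATGAACTGGGCA
Tbx20 guide B: gagctgctCGCCAGTAAAGG
Gata4 guide A: cagagagtGTGTCAATTGTG
Gata4 guide B: gcaggactGGGCTGTCGAAG
In GRCm38, all 4 lay in coding sequence and were followed by NGG, the PAM that Cas9 needs. Those of Tbx20 matched chr9:24770708-24770727 (minus strand, exon 2 of the longest matching transcript) and chr9:24765732-24765751 (plus strand, exon 4). Those of Gata4 matched chr14:63204711-63204730 (minus strand, exon 3) and chr14:63240581-63240600 (plus strand, exon 2).

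Both targets had lower transcript levels in the libraries that received their own guides. Gata4 was measured at 164, 156 and 166 CPM (counts scaled to library size with TMM factors) in control libraries a, b and c, at 53.7, 47.2 and 65.2 CPM in Gata4 KD and at 178, 192 and 199 CPM in Tbx20 KD. Its log2 fold change in Gata4 KD against control was -1.55 (SE 0.12, adjusted p 0.00272 by edgeR's quasi-likelihood test). Tbx20 was measured at 1001, 1288 and 714 CPM in control, at 321, 427 and 429 CPM in Tbx20 KD and at 670, 518 and 904 CPM in Gata4 KD. The Tbx20 KD and control libraries did not overlap, at a log2 fold change of -1.35 (SE 0.21), but its adjusted p of 0.748 did not pass the threshold of 0.05. Over the alternatives listed in the methods, the adjusted p of Tbx20 ran from 3.18e-08 (DESeq2) to 1.

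Library totals ran from 31214828 to 41950397 counts. All 7 fibroblast markers were detected, with summed levels of 6120 to 9660 CPM over the 9 libraries. The sums were 36.1 to 54.8 CPM for 5 endothelial markers and 21.4 to 50 CPM for 5 leukocyte markers. The lowest leukocyte sum was in Gata4 KD b. Kdr had means of 5.57 CPM in Gata4 KD and 2.83 CPM in control, and Pecam1, Cdh5 and Vwf were also higher. Tek was lower (22.05 and 27.95 CPM). Csf1r had means of 6.43 and 9.98 CPM, and Lyz2, Cd68 and Adgre1 were also lower, while Ptprc was not (2.37 and 2.31 CPM). Smooth muscle and pericyte markers summed to 22.3 to 25.9 CPM in Gata4 KD and 15.5 to 18.7 CPM in control. Most of that difference was Cnn1, with means of 12.2 and 7.7 CPM, and Rgs5 (5.01 and 2.63 CPM). Cspg4 was slightly higher in Gata4 KD (3.74 and 3.15 CPM), while Myh11 (2.12 and 2.32 CPM) and Des (1.251 and 1.255 CPM) were not higher. The 5 epicardial markers summed to 8.06 to 15.9 CPM in Gata4 KD and 23.6 to 44.4 CPM in control. Lrrn4 made up most of that difference, with means of 2.38 and 24.7 CPM. Means of Upk3b (0.853 and 2.42 CPM) and Msln (0.0487 and 0.167 CPM) were also lower in Gata4 KD. Krt19 (8.56 and 6.67 CPM) and Wt1 (0.820 and 0.745 CPM) were not lower in Gata4 KD. The 5 cardiomyocyte markers summed to 8.64 to 9.52 CPM in Gata4 KD and 24.2 to 30.8 CPM in control, nearly all of it Tnnt2, while Myh6 was at or near 0 and Nppa at 0 in all 9 libraries. The part of these marker differences in the results below was not tested. In bulk samples, fewer cells of a type and less RNA per cell cannot be told apart.

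The 10 genes ranged from abundant transcripts to a few reads per library. Per kilobase of exon, the highest were Adamts1 at 45.1 ± 3.84 CPM per kb (SD, n = 3, control) and Adamts5 at 33.6 ± 8.47 CPM per kb (SD, n = 3), and their ranges overlapped. Below them, without overlap between neighbours, came Adamtsl3 at 18.4 ± 2.16, Adamts2 at 13.0 ± 1.65 and Adamts9 at 5.16 ± 0.34 CPM per kb (SD, n = 3 each). Adamts12 at 4.06 ± 0.572 and Adamts4 at 3.95 ± 0.264 CPM per kb (SD, n = 3) overlapped. The lowest were Adamtsl2 at 0.875 ± 0.374, Adamtsl1 at 0.0600 ± 0.0288 and Adamts15 at 0.0105 ± 0.0119 CPM per kb (SD, n = 3). The 4 highest genes held the same ranks in all 3 groups. Adamts9 ranked 5 in control and in Tbx20 KD, and 7 in Gata4 KD, where its 3.51 ± 0.546 CPM per kb (SD, n = 3) overlapped Adamts12.

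**Figure D1:**
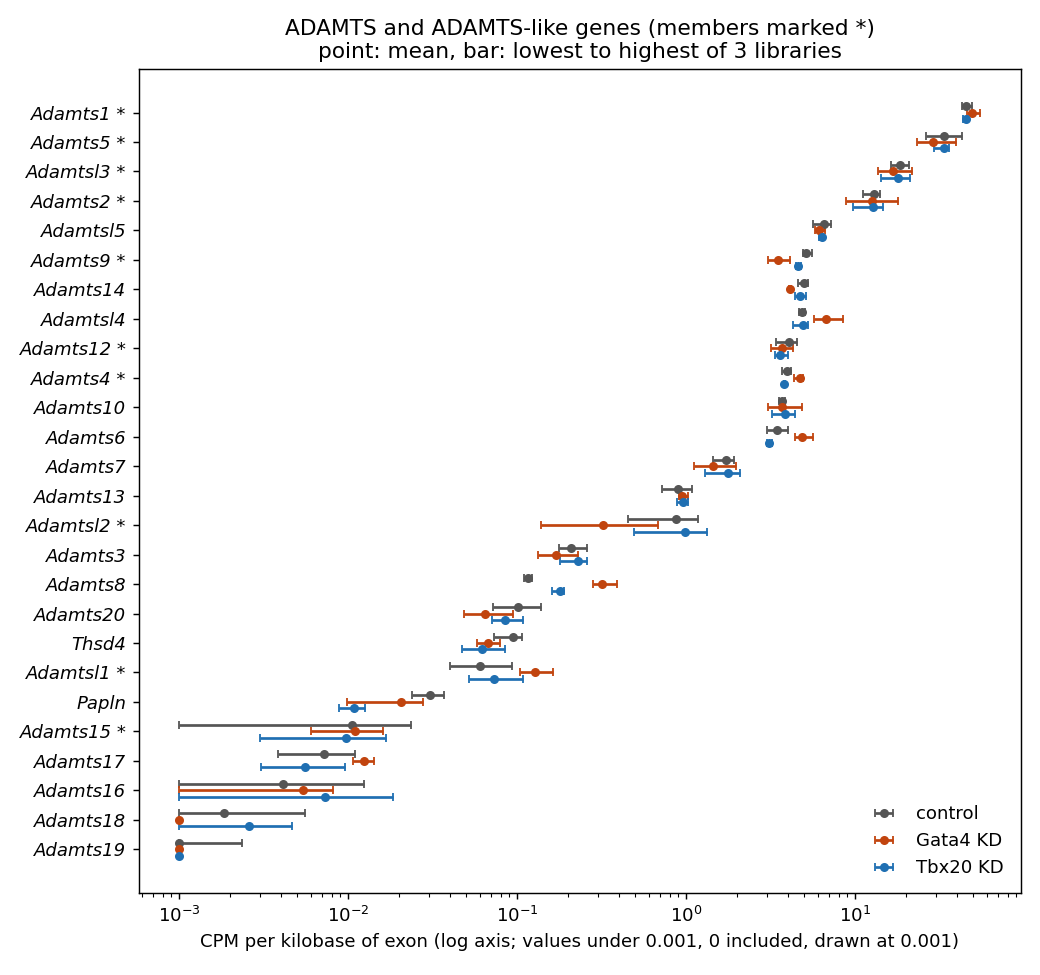
Level of the 10 members (marked with an asterisk) and 16 related genes in CPM per kilobase of exon on a log axis; points are means and bars run from the lowest to the highest of 3 libraries in each group. Adamts1, Adamts5, Adamtsl3 and Adamts2 stand at the top in every group, and Adamts15 lies near the bottom.

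None of the 10 genes passed the threshold in any of the 3 comparisons. By edgeR's quasi-likelihood test, 9 of the 10 were tested, since Adamts15 was removed as too low, and 0 of 9 were called in Gata4 KD against control, where 55 of 14468 genes (0.380%) were called. In Tbx20 KD against control 0 of 9 were called, beside 1 of 14547 genes (0.00687%), and in Gata4 KD against Tbx20 KD 0 of 9, beside 208 of 14477 genes (1.44%). At an unadjusted p under 0.05 the counts were 4 of 9 (8.54% of all genes) in Gata4 KD against control, 0 of 9 (2.69% of all genes) in Tbx20 KD against control and 4 of 9 (16.7% of all genes) in the direct comparison. The 4 genes were the same in both, Adamts4, Adamts9, Adamtsl1 and Adamtsl2, and these comparisons share the Gata4 KD libraries. DESeq2 called 1, 0 and 2 of the 9, and limma-voom 0 in each. Over all 14468 genes tested in Gata4 KD against control, DESeq2 called 273 and limma-voom 48. The DESeq2 totals of the other comparisons, given in the last section, were also above those of edgeR. The comparisons of each knockdown with control share the control libraries.

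The groups did not overlap for 3 of the 9 genes in Gata4 KD against control (14.0% of all genes), 1 of 9 in Tbx20 KD against control (6.96% of all genes) and 2 of 9 in Gata4 KD against Tbx20 KD (23.1% of all genes). The median log2 fold change of the 9 was -0.14 in Gata4 KD against control, beside -0.017 over all genes tested, -0.03 in Tbx20 KD against control, beside -0.002, and -0.01 in the direct comparison, beside -0.006.

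**Figure D2:**
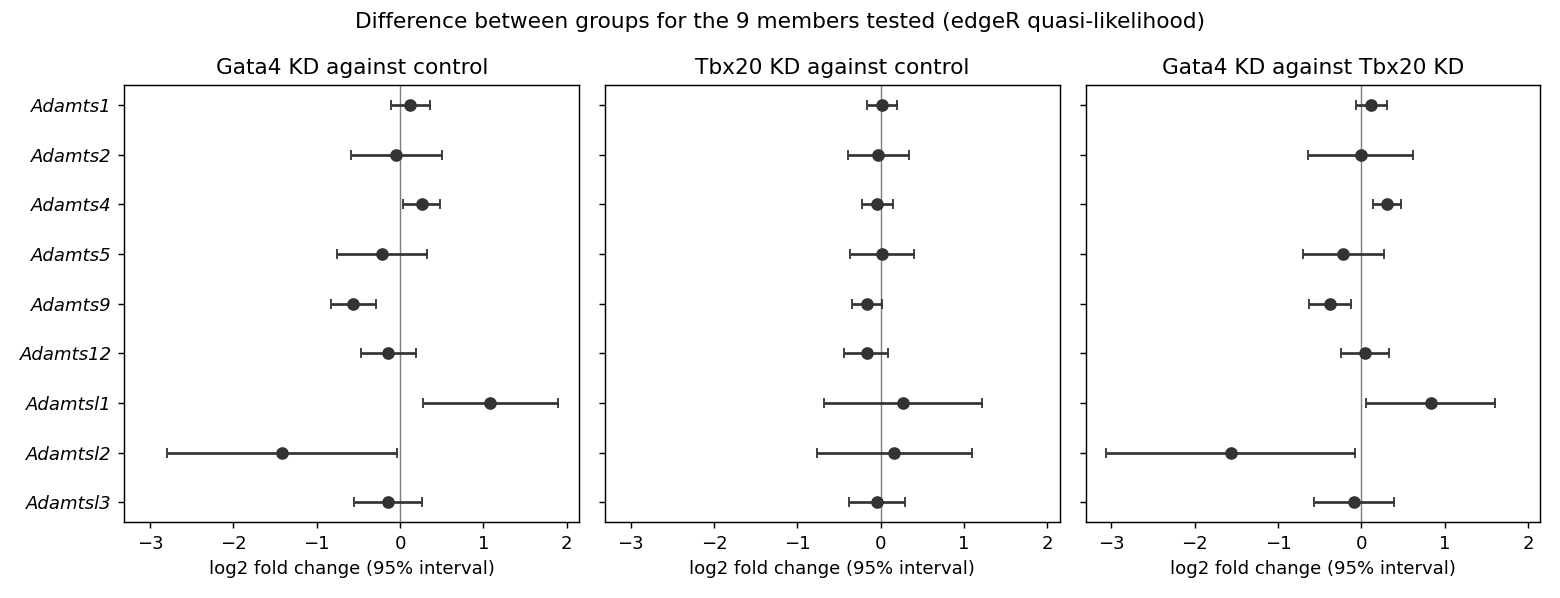
Log2 fold change with its 95% interval for the 9 members tested, in each comparison of groups with 3 libraries each. Adamts9 lies at -0.56 and Adamtsl2 at -1.42 in Gata4 KD against control, and in Tbx20 KD against control all 9 intervals include 0.

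Adamts9, a protease that cleaves versican and is expressed widely in the cardiovascular system, lies on the minus strand of chr6:92772699-92943492. It was measured at 74.3, 83.5 and 75.0 CPM in control libraries a, b and c, at 46.0, 50.5 and 61.9 CPM in Gata4 KD and at 67.0, 67.2 and 72.5 CPM in Tbx20 KD. All 3 Gata4 KD libraries were below all 6 others, and all 3 Tbx20 KD libraries were below the controls. The level was 1.47-fold lower in Gata4 KD than in control, or -0.56 on the log2 scale (SE 0.12, 95% interval -0.83 to -0.29, p 0.00126), with an adjusted p of 0.128. Its adjusted p ran from 0.00523 (DESeq2) to 0.543 over the alternatives, and it passed in 4 of 13. These were DESeq2, no filter, all 9 libraries in 1 fit and the fit without Gata4 KD replicate c (adjusted p 0.0427). With no filter the pass was at the threshold itself, with an edgeR adjusted p that rounds to 0.05. Against Tbx20 KD the log2 fold change was -0.38 (SE 0.11, 95% interval -0.63 to -0.13, adjusted p 0.143), and it passed in 2 of 13 alternatives, DESeq2 and without Gata4 KD replicate c, with adjusted p-values of 0.00876 to 0.408. Tbx20 KD differed from control by -0.17 (SE 0.08, p 0.0577, adjusted p 1). Its exons overlap those of A730049H05Rik and Gm15737 on the opposite strand, and the counting took strand into account.

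Adamts4, an aggrecanase that also cleaves versican, lies on the plus strand of chr1:171250421-171260637. Its level was 19.1, 20.2 and 17.7 CPM in control, 23.7, 21.0 and 23.5 CPM in Gata4 KD and 18.2, 18.6 and 18.4 CPM in Tbx20 KD. The 3 Gata4 KD libraries were above all 6 others, by a small margin over control b. The log2 fold change was 0.26 (SE 0.10, adjusted p 0.494) in Gata4 KD against control and 0.31 (SE 0.07, 95% interval 0.14 to 0.48, adjusted p 0.0946) against Tbx20 KD. The direct difference passed in 1 of 13 alternatives, DESeq2 (adjusted p 0.0245), with a range of 0.0245 to 0.313. Tbx20 KD differed from control by -0.04 (SE 0.08, adjusted p 1). Among 14267 other genes, those with the most similar deviations of log2 CPM from their mean over the 9 libraries were Cblb, Lrp12 and Aggf1, with root mean square differences of 0.0547, 0.0558 and 0.0602.

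Adamts1 and Adamts5, proteases of versican and aggrecan, are neighbours on chromosome 16, with 53059 bases and no protein-coding gene between them. Adamts1 (minus strand, chr16:85793827-85803113) was measured at 228, 263 and 228 CPM in control, 244, 247 and 293 CPM in Gata4 KD and 245, 231 and 247 CPM in Tbx20 KD. Adamts5 (minus strand, chr16:85856173-85901828) was measured at 338, 463 and 285 CPM in control, 258, 250 and 426 CPM in Gata4 KD and 317, 387 and 388 CPM in Tbx20 KD. The groups overlapped for both genes. In Gata4 KD against control the log2 fold change was 0.12 (95% interval -0.11 to 0.36, adjusted p 0.815) for Adamts1 and -0.22 (95% interval -0.76 to 0.32, adjusted p 0.860) for Adamts5. The value for Tbx20 KD against control was 0.02 (95% interval -0.17 to 0.20) for Adamts1 and 0.01 (95% interval -0.37 to 0.40) for Adamts5, both with an adjusted p of 1. Without Gata4 KD replicate c, which held the high Adamts5 value of its group, the direct comparison gave -0.52 for Adamts5 with an adjusted p of 0.0287 (0.0287 to 0.932 over the alternatives), beside -0.22 and 0.638 with it.

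Adamts15, a further versican-cleaving protease (minus strand, chr9:30899155-30922452), was at the limit of detection, with 9, 3 and 0 counts in control, 2, 6 and 4 counts in Gata4 KD and 4, 1 and 7 counts in Tbx20 KD. The filter of the main fit removed it, so no fold change is given for it. The next protein-coding gene on chromosome 9, with 20109 bases between them, is its family member Adamts8.

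Adamts2, the enzyme that removes the amino-terminal propeptide of fibrillar procollagens (plus strand, chr11:50602084-50807573), was measured at 131, 130 and 104 CPM in control, 101, 83.0 and 169 CPM in Gata4 KD and 90.4, 129 and 137 CPM in Tbx20 KD. Gata4 KD replicate c was above every control, and replicates a and b were below every control. The log2 fold changes of -0.05 (95% interval -0.59 to 0.50) in Gata4 KD and -0.03 (95% interval -0.39 to 0.34) in Tbx20 KD against control did not pass (adjusted p 0.975 and 1). Adamts12, which cleaves cartilage oligomeric matrix protein (plus strand, chr15:11064790-11349231), was measured at 46.1, 49.6 and 37.4 CPM in control, 39.2, 34.6 and 47.1 CPM in Gata4 KD and 37.2, 36.9 and 43.6 CPM in Tbx20 KD. Its groups overlapped, with log2 fold changes of -0.14 (SE 0.14, adjusted p 0.850) and -0.17 (SE 0.12, adjusted p 1).

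The ADAMTS-like genes differed widely in level. Adamtsl2, whose product binds fibrillin-1 and latent TGF-beta binding protein 1 (plus strand, chr2:27079379-27108981), was measured at 7.96, 9.38 and 3.65 CPM in control, 1.19, 1.11 and 5.48 CPM in Gata4 KD and 3.94, 8.95 and 10.6 CPM in Tbx20 KD. Gata4 KD replicates a and b were below all other libraries, while replicate c lay between the control values. The log2 fold change was -1.42 (SE 0.60, 95% interval -2.80 to -0.04, adjusted p 0.574) in Gata4 KD against control and -1.57 (SE 0.64, adjusted p 0.272) against Tbx20 KD. Without Gata4 KD replicate c they were -2.58 (adjusted p 0.0642) and -2.77 (adjusted p 0.0201), the lowest adjusted p of the alternatives, which reached 1 and 0.591. Tbx20 KD differed from control by 0.16 (SE 0.41, adjusted p 1).

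Adamtsl1, also named punctin-1 (plus strand, chr4:85514172-86428385), was low, at 0.512, 1.19 and 0.598 CPM in control, 1.44, 1.33 and 2.09 CPM in Gata4 KD and 0.664, 1.38 and 0.745 CPM in Tbx20 KD. The 3 Gata4 KD libraries were above the controls, and control b came close to them. The log2 fold change was 1.08 (SE 0.36, 95% interval 0.27 to 1.90, adjusted p 0.391) against control and 0.83 (SE 0.33, adjusted p 0.262) against Tbx20 KD, and none of 13 alternatives brought either past the threshold. Adamtsl3, or punctin-2 (plus strand, chr7:82335694-82614450), was the most abundant of the 3, at 141, 160 and 127 CPM in control, 113, 106 and 169 CPM in Gata4 KD and 111, 140 and 164 CPM in Tbx20 KD. Its groups overlapped, with log2 fold changes of -0.14 (SE 0.18, adjusted p 0.881) in Gata4 KD and -0.04 (SE 0.15, adjusted p 1) in Tbx20 KD against control.

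**Figure D3:**
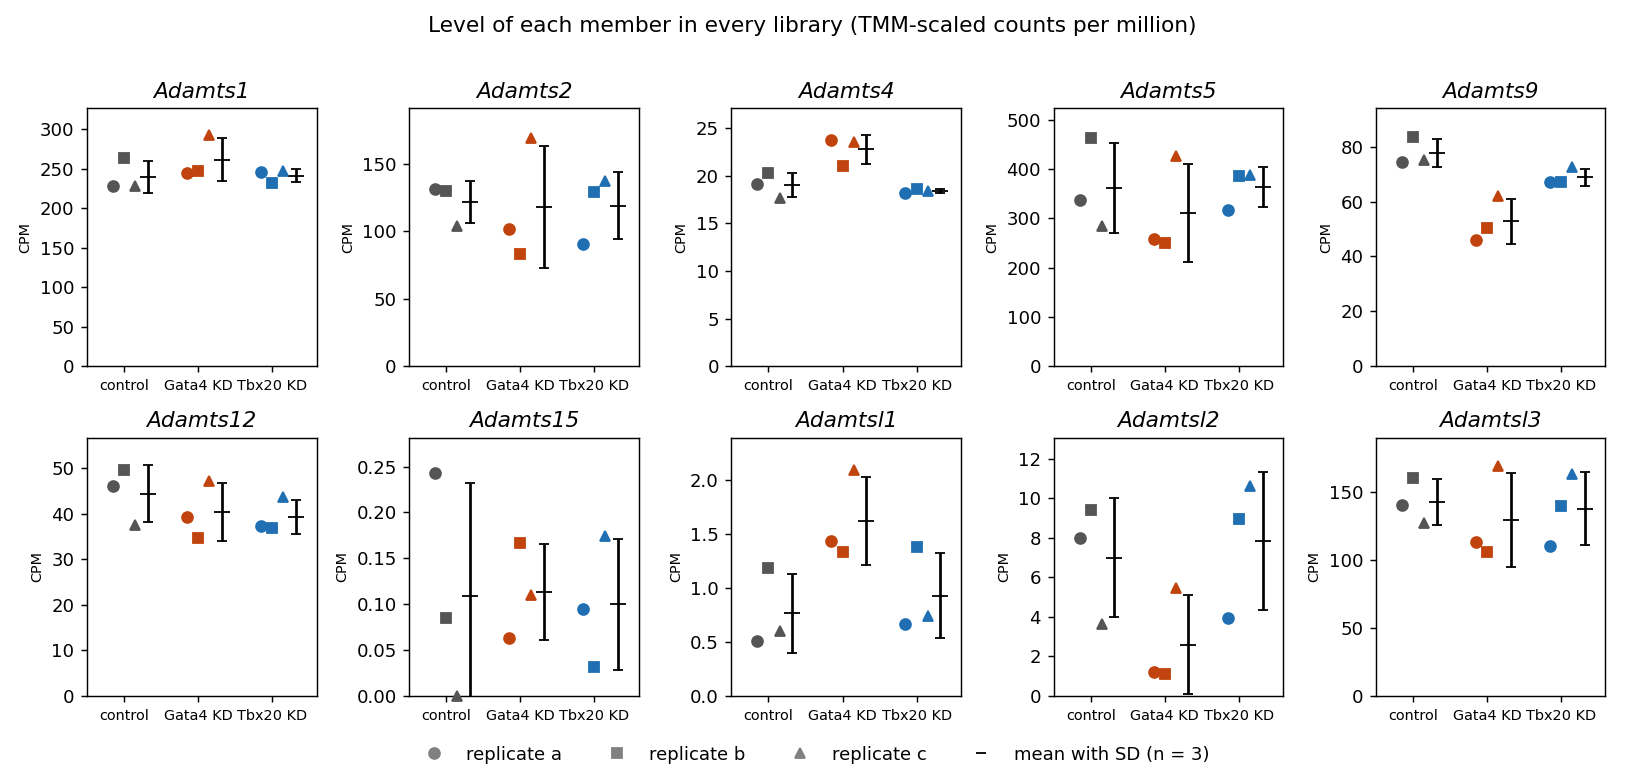
CPM of each member in every library, with replicate letters as symbols and the mean and SD of 3 libraries beside them. Adamts9 is lower in all 3 Gata4 KD libraries than in the 6 others, and replicate c of Gata4 KD is the highest of its group for all members but Adamts4 and Adamts15.

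Within each group most members were highest in the same library. Control replicate b was the highest of its group for 8 of the 9 tested genes, all but Adamts2, and replicate c the lowest for 7. Gata4 KD replicate c was the highest for 8, all but Adamts4, and replicate b the lowest for 7. Tbx20 KD replicate c was the highest for 7 and replicate a the lowest for 7. Over 14268 genes tested in all comparisons, control b, Gata4 KD c and Tbx20 KD c were the highest of their group for 41.1%, 37.7% and 28.8% of genes. Control c, Gata4 KD b and Tbx20 KD a were the lowest for 37.4%, 32.5% and 36.9% of these genes. The members share their libraries and are not independent of each other.

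The fibroblast markers moved with the same libraries. Of 7 markers, 5 were highest in control b, 6 in Gata4 KD c and 5 in Tbx20 KD c, and 6, 7 and 6 were lowest in control c, Gata4 KD b and Tbx20 KD a. Dcn, decorin, was measured at 151, 188 and 108 CPM in control, 117, 93.9 and 195 CPM in Gata4 KD and 106, 200 and 177 CPM in Tbx20 KD. The summed level of the fibroblast markers was 8730, 9290 and 8170 CPM in control, 6960, 6120 and 8630 CPM in Gata4 KD and 7820, 8860 and 9660 CPM in Tbx20 KD. Col1a1 and Col1a2 made up most of that sum, with means of 3996 and 3859 CPM in control and 3142 and 3169 CPM in Gata4 KD. Means of Tcf21 (182 CPM in control and 119 CPM in Gata4 KD), Dcn (149 and 135 CPM) and Thy1 (94.3 and 91.2 CPM) were also lower in Gata4 KD. Those of Pdgfra (449 and 580 CPM) and Lum (1.72 and 1.90 CPM) were higher. Whether these markers account for the spread of the ADAMTS genes was not tested.

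The median coefficient of variation of the 9 genes was 12.7% in control, 25.3% in Gata4 KD and 11.2% in Tbx20 KD, beside 11.0%, 8.50% and 6.67% over all 14268 genes. Adamts4 was the steadiest in both knockdowns, at 6.70% and 1.09%, and Adamtsl2 the most variable, at 96.3% and 44.3%. In control the extremes were Adamts9 at 6.59% and Adamtsl1 at 47.9%.

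**Figure D4:**
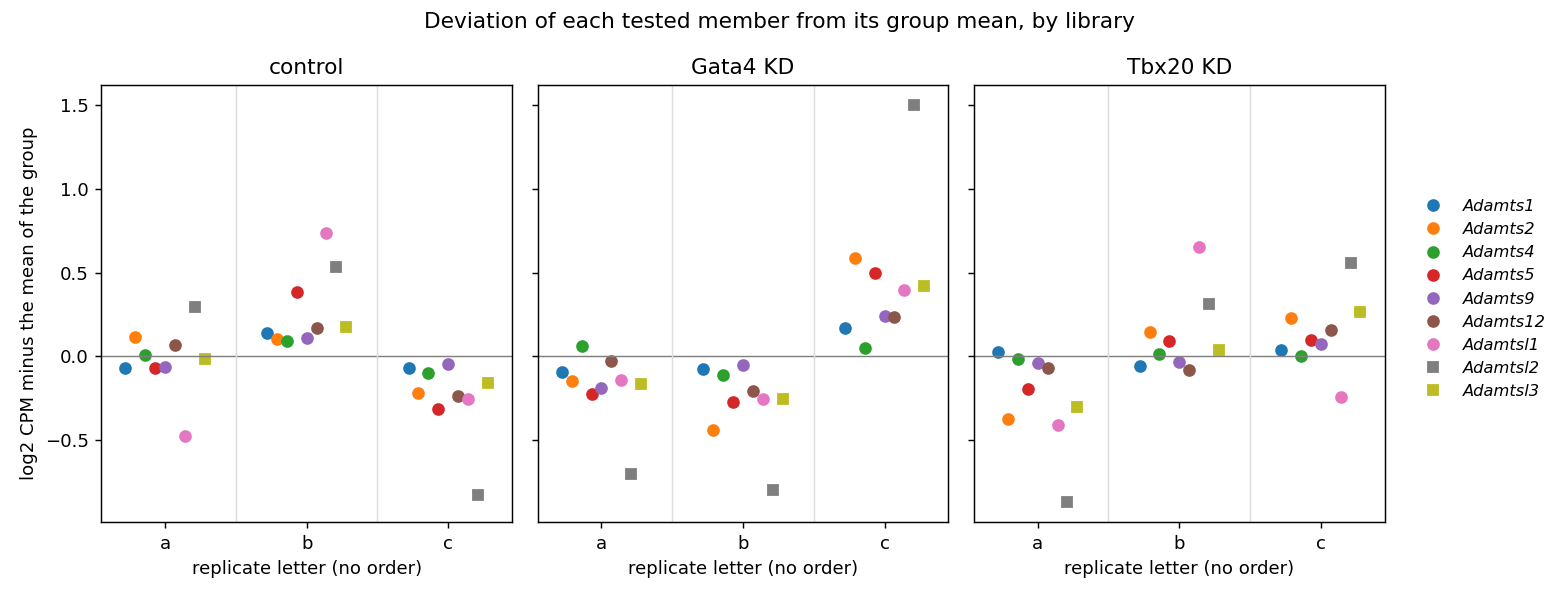
Log2 CPM of the 9 tested members minus the mean of their group, for each library; the replicate letters have no order. Most members lie above 0 in control b and Gata4 KD c and below 0 in control c, Gata4 KD b and Tbx20 KD a.

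Promoter windows are shown for Adamts9 and Adamtsl2, the members with the most negative log2 fold changes in Gata4 KD. RefSeq sequences (GRCm38.p6) of the 250 bases before the start were matched for 6 of the 10 members, Adamts1, Adamts2, Adamts9, Adamts12, Adamtsl2 and Adamtsl3, and capitals mark a TATAAA match.
Adamts9, minus strand, chr6:92943535-92943784: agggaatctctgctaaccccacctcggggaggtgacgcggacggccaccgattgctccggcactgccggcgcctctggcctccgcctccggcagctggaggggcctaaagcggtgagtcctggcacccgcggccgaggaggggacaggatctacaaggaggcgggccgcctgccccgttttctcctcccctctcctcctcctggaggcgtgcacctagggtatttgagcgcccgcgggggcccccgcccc
Adamtsl2, plus strand, chr2:27079129-27079378: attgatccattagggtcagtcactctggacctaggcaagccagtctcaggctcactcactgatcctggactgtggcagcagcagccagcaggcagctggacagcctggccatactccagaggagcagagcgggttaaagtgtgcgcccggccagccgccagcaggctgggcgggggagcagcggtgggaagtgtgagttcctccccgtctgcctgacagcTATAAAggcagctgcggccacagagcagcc
Searched on both strands were the GATA word AGATAA, its variants ending in G (AGATAG) or opening with T (TGATAA), the variant with both changes (TGATAG), the T-box word AGGTGT and the TATA word TATAAA. The GATA words share their middle letters and cannot match at the same place. None of the 6 windows held a GATA word, beside 26.5% of 32851 promoter windows of the same length, and none held the T-box word, beside 11.8%. TATAAA was in 2 of the 6, Adamts1 and Adamtsl2, beside 12.4%, and began 32 and 30 bases before the start. GC content was 62.8 to 80.0% in the 6 windows, beside a median of 52.4% over all windows. The absence of a word says only that its letters are not in these windows.

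The rest of the family was measured for comparison. Of 16 related genes 11 were tested. By edgeR 0 passed the threshold in Gata4 KD against control (0.380% of all genes) and 0 in Tbx20 KD against control (0.00687%). In the direct comparison 1 passed (1.44% of all genes). At an unadjusted p under 0.05 the counts were 4, 1 and 4 of 11, beside 8.54%, 2.69% and 16.7% of all genes. DESeq2 called 2, 0 and 1 of the 11, and limma-voom 0, 0 and 1. Over all genes, DESeq2 called 273 of 14468 in Gata4 KD against control, and its other totals are given in the last section. The call made by all 3 tools was Adamts6, a protease linked to fibrillin microfibrils and heart development. Its level was 23.5, 31.2 and 25.6 CPM in control, 35.7, 44.1 and 34.4 CPM in Gata4 KD and 23.7, 25.1 and 23.6 CPM in Tbx20 KD. All 3 Gata4 KD libraries were above the other 6, and Adamts6 was 1.58-fold higher than in Tbx20 KD (log2 fold change 0.66, SE 0.09, adjusted p 0.0249), a call held in 9 of 13 alternatives (adjusted p 1.2e-06 to 0.144) and lost without Gata4 KD replicate a or without any of the 3 Tbx20 KD replicates. Against control the log2 fold change in Gata4 KD was 0.50 (SE 0.13, adjusted p 0.236). It passed in 1 of 13 alternatives (DESeq2), whose adjusted p-values spanned 0.0414 to 0.788. The other gene that DESeq2 called in Gata4 KD against control was Adamts8, named after its values were seen, at 0.540, 0.509 and 0.568 CPM in control, 1.32, 1.31 and 1.79 CPM in Gata4 KD and 0.878, 0.848 and 0.745 CPM in Tbx20 KD. Its groups did not overlap, and it was 2.72-fold higher in Gata4 KD than in control (log2 fold change 1.44, SE 0.25), with an edgeR adjusted p of 0.0748. Adamtsl5 and Adamtsl4, the most abundant of the 16 per length at 6.36 and 5.50 CPM per kb over all libraries, did not pass in any comparison.

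Of 42 genes listed as substrates, partners, inhibitors and processing enzymes of these proteins, 36 were tested and 0 passed in each comparison by edgeR. At an unadjusted p under 0.05 the counts were 5, 1 and 7 of 36, beside 8.54%, 2.69% and 16.7% of all genes. DESeq2 called 1, 0 and 4 of the 36, and limma-voom 0 in each. Over all genes, DESeq2 called 273 of 14468 in Gata4 KD against control, and more in the direct comparison, as given in the last section. The median log2 fold change of the 36 was 0.03 in Gata4 KD against control, 0.02 in Tbx20 KD against control and 0.01 in the direct comparison. Among proteoglycan substrates and matrix partners, 8 of 12 were tested and 0 passed by edgeR, and the highest per length were Bgn and Fn1, biglycan and fibronectin, at 614 and 571 CPM per kb. Among procollagens and their processing enzymes, 8 of 8 were tested, led by Col1a1 and Col3a1 at 562 and 297 CPM per kb, with a median log2 fold change of -0.27 in Gata4 KD against control and 0 past the threshold by edgeR. DESeq2 called 1 of them there, Pcolce2, a procollagen C-proteinase enhancer named after its values were seen, which was measured at 60.1 to 66.5 CPM in the control libraries and 35.4 to 47.1 CPM in those of Gata4 KD (log2 fold change -0.60, SE 0.12, edgeR unadjusted p 0.000769, not past the threshold after adjustment). The signs in that comparison differed between lists. Values were higher in Gata4 KD for 1 of 8 procollagen genes, 6 of 8 proteoglycan substrates and matrix partners, 6 of 8 microfibril partners, 5 of 8 inhibitors, activating and clearance genes and 3 of 4 glycosylating genes, beside 45.9% of all genes tested. For the collagen substrates of Adamts2 themselves, Col1a1 gave -0.35 (SE 0.12, adjusted p 0.423) and Col3a1 -0.51 (SE 0.24, adjusted p 0.640).

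Microfibril partners were all tested (8 of 8), led by Fbn1, fibrillin-1, and Ltbp1 at 123 and 38.4 CPM per kb, with a median of 0.06 in Gata4 KD against control. Inhibitors, activating and clearance genes (8 of 10 tested) were led by Timp1 and Timp2, inhibitors of metalloproteases, at 812 and 289 CPM per kb, and Timp4 was at 0 in every library. Genes that glycosylate the thrombospondin repeats (4 of 4 tested) were led by Pofut2 and Dpy19l1 at 13.3 and 12.2 CPM per kb. Vcan, versican, was named after its values were seen, as the shared substrate of most of the proteases. It was measured at 779, 688 and 678 CPM in control, 828, 1036 and 738 CPM in Gata4 KD and 643, 515 and 624 CPM in Tbx20 KD. All 3 Gata4 KD libraries were above all Tbx20 KD libraries. The difference of 0.55 on the log2 scale (SE 0.13, adjusted p 0.104) did not pass by edgeR, while Vcan was among the 4 that DESeq2 called. Against control, Gata4 KD differed by 0.27 (SE 0.13, edgeR adjusted p 0.636) with overlapping groups. Tbx20 KD differed from control by -0.26 (SE 0.10, edgeR unadjusted p 0.0333), without overlap, and did not pass after adjustment.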

How the data were processed

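RNA of 9 libraries was sequenced as 75 base single-end reads. The authors quantified reads per gene with Bowtie2 and RSEM, counting by strand, and deposited expected counts, which were whole numbers in the table and not normalized; RSEM divides reads that match several genes. The genome build is GRCm38 in the study's methods and mm9 in the submitters' processing notes. Symbols and positions came from GENCODE M21 (GRCm38), and 37607 of 38924 gene IDs (96.6%) had a symbol. No 75 base window of a member was shared with another gene. Groups came from the labels, which do not say whether replicates were separate cultures. The paper calls them biological replicates. The p-values set the difference between groups against the spread between these samples.

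Each comparison was fitted on its 6 libraries in R 4.3.3 with edgeR 4.0.16 (filterByExpr, TMM factors, glmQLFit, glmQLFTest, no covariate, Benjamini-Hochberg adjustment over all genes tested, threshold 0.05). CPM were scaled over all 9 libraries. Alternatives were DESeq2 1.42.0, limma-voom (limma 3.58.1), no TMM factors, no filter on low genes, a filter at CPM above 1 in 2 or more libraries, all 9 libraries in 1 fit, the replicate letter as a block and leaving out each replicate. Tests were checked on simulated data. With 3 libraries a group, counts of a few reads, as for Adamts15, allow no comparison.

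Members and lists were chosen with earlier results of these data known. Named were all 10 members; related and pathway genes past the threshold, at 0 in every library or among the 2 highest of their list per kilobase; the 3 genes most like the member with the smallest adjusted p; and Gata4 and Tbx20. Vcan, Pcolce2, Adamts8 and the markers named were exceptions, chosen after their values were seen.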

Additional observations from a re-analysis of the deposited data

Results flagged for a closer look

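The difference between Gata4 KD and Tbx20 KD in log2 expression passed the threshold for Adamts6, which was 0.66 higher in Gata4 KD (SE 0.09, adjusted p 0.0249 by edgeR's quasi-likelihood test, higher in 3 of 3 libraries). For Gata4 itself, the target of the guides in the first of these groups, the difference was -1.77 (SE 0.12, adjusted p 0.0013, lower in 3 of 3 libraries).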

How the results depend on the processing

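The count of the 9 tested members past the threshold was 0 in all 3 comparisons. In Gata4 KD against control it became 1 (Adamts9) with DESeq2, with no filter on low genes (at the threshold itself) and with all 9 libraries in 1 fit. The fit with no filter covered all 10 members, Adamts15 included. The count was 0 to 1 when a replicate was left out, the 1 being Adamts9 when Gata4 KD c was left out. Between Gata4 KD and Tbx20 KD the count became 2 with DESeq2 (Adamts4 and Adamts9) and 0 to 3 when a replicate was left out, the 3 being Adamts5, Adamts9 and Adamtsl2 without Gata4 KD replicate c. In Tbx20 KD against control it stayed at 0 in every alternative run. The cause was not tested. Over all genes, Gata4 KD against control gave 55 calls, 273 with DESeq2, 121 with no filter, 148 with all 9 libraries in 1 fit, 5 with the replicate block and 6 to 189 when a replicate was left out (189 without control b, 6 without control a). Tbx20 KD against control gave 1 call, 10 with DESeq2, 2 with no filter, 2 with the replicate block and 1 to 5 when a replicate was left out. The direct comparison gave 208 calls, 761 with DESeq2, 324 with no filter, 101 with the replicate block and 22 to 801 when a replicate was left out. The labels do not say whether the replicate letters pair the libraries. Correlations of same-letter deviations ran from -0.22 to 0.28, which with so few libraries cannot decide it. The block called no member.

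Log2 fold changes near 0 changed sign when a replicate was left out. In Gata4 KD against control this was so for Adamts2 (-0.38 to 0.16). In Tbx20 KD against control it was so for Adamts1 (-0.02 to 0.088), Adamts2 (-0.14 to 0.14), Adamts4 (-0.084 to 0.003), Adamts5 (-0.13 to 0.23), Adamtsl1 (-0.12 to 0.73), Adamtsl2 (-0.14 to 0.49) and Adamtsl3 (-0.18 to 0.095). In the direct comparison it was so for Adamts2 (-0.37 to 0.19), Adamts12 (-0.094 to 0.15) and Adamtsl3 (-0.34 to 0.054). No other fold change of a member, of Adamts6 or of a target changed sign.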
